A study of Glycine max with 34 samples.

Results

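CYP76O2, CYP77A3 and CYP72A67 are 3 soybean genes of the cytochrome P450 superfamily. They were chosen by symbol from the array's probe-to-gene annotation because their signal differed between seed compartments, so the values behind that choice are given below as descriptions and carry no test. Each gene was read by 2 probe sets assigned to it alone, which made 6 of the 37593 soybean probe sets, and 3 of the 6029 genes that the annotation gave a probe set of their own. CYP76O2 was chosen for the vascular bundle, CYP77A3 for the epidermis and CYP72A67 for the cotyledon's abaxial parenchyma, the storage tissue on the outer face of the cotyledon.

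The arrays profiled Glycine max cv. Asgrow A3237, in seeds 6.0 to 7.0 mm long that held embryos at the early maturation stage, when storage reserves begin to fill the seed. All groups shared this cultivar, stage and growth regime (days of 16 h light and nights of 8 h, at 22 °C), and no group was a treatment or a mutant. Tissue was cut by laser from sections of fixed, paraffin-embedded seeds, and 2 ng of total RNA per sample was amplified before labelling. The 6 embryonic axis groups were the meristems of root and shoot, the plumule, the vascular bundle, the parenchyma and the epidermis. The 5 cotyledon groups were the abaxial and adaxial epidermis, the abaxial and adaxial parenchyma and the vascular bundle. The 5 seed coat groups were the palisade, hourglass, parenchyma and hilum layers of maternal tissue and the aleurone. The last of the 17 groups was ground whole seed, which was not cut by laser and whose RNA was extracted with another reagent. Differences between whole seed and the compartments cannot be told apart from this difference in preparation. Each group had 2 arrays, labelled as biological replicates, which made 34 arrays.

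Plant cytochrome P450 enzymes are heme mono-oxygenases that insert an oxygen atom into small molecules, with electrons from an NADPH-dependent reductase, and most plant families of them act in specialised metabolism, in hormone pathways or in the building of cell wall and surface polymers. Members of the CYP76 family oxidise monoterpene alcohols in Arabidopsis, members of the CYP77A subfamily act on fatty acids of the cutin pathway in Arabidopsis, and CYP72A67 of Medicago truncatula oxidises triterpene sapogenins on the way to hemolytic saponins. The roles of the soybean genes are taken here only by family.

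Signals are the deposited linear intensity units, which have no physical scale and cannot be compared between probe sets. An array's background was set at the 95th percentile of its 23350 probe sets for organisms other than soybean, and it lay between 104.3 and 263.9 units over the arrays, with a median of 170.2. Between 44.2% and 59.8% of the soybean probe sets exceeded it. Differences are log2 differences of signal + 16 with their standard errors, from a limma fit over all 34 arrays, and a comparison was called at a Benjamini-Hochberg adjusted p below 0.05 over 28441 probe sets with a log2 difference of at least 1. Where the dimmer side was not mostly above background, its signals were raised to the background and the fold is given as "at least". Folds are of means of log2 values, so they can differ from the ratio of the linear means. Replicates correlated at r = 0.870 to 0.956. On 6 arrays the spiked hybridization controls were more than 2 times as bright as on the median array. These were both axis epidermis arrays, both plumule arrays, replicate 1 of the axis vascular bundle and replicate 1 of the aleurone. Because RNA came from whole tissue regions, fewer cells of a type and less RNA per cell cannot be told apart.

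The labels were checked against marker genes. The storage parenchyma genes, which include the glycinin genes GY1 and GY2, were highest in cotyledon parenchyma in 4 of 4 cases. For GY1, GY2 and KTI3 an array outside the highest group read above at least 1 of that group's arrays. Ep, the seed coat peroxidase, peaked in the hourglass layer, at 38705.9 and 40376.2. Of the 7 genes for sieve element occlusion (SEO) proteins, which mark phloem sieve elements, 6 were highest in seed coat parenchyma. In the cotyledon vascular bundle 1 of the 7 exceeded background on both arrays, and in the axis vascular bundle 0 did. The summed SEO signals were 17486.3 and 16070.8 in seed coat parenchyma, 1247.7 and 1680.9 in the cotyledon bundle and 1011.1 and 1576.7 in the axis bundle. These genes marked the bundle labels only weakly. For the epidermis a list of cutin and wax symbols matched only WIN. WIN exceeded background on 2 of 2 arrays in adaxial epidermis, but on 0 of 2 in abaxial and 0 of 2 in axis epidermis. Its mean was 39.45 units in axis epidermis and 383.45 in axis parenchyma, so WIN did not bear out the axis and abaxial epidermis labels. None of the meristem symbols was matched, so the meristem labels were not checked.

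CYP76O2 was bright in 1 group. Its brighter probe set read 27122.4 and 25208.9 units in the cotyledon vascular bundle. The 32 other arrays read 233.7 to 2231 units. The cotyledon bundle therefore stood above every other group with no overlap, a pattern held by 1.08% of all tested probe sets. The suffix of this probe set's name marks probes that can also bind near-identical copies, so related transcripts may contribute to its signal. It exceeded background on 34 of 34 arrays.

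The next levels of CYP76O2 lay far below and close together. Whole seed read 2231 and 1668.1 units, and axis parenchyma read 1654.2 and 1517. The plumule read 1354.8 and 1568.6, and the shoot meristem 1656.9 and 996.8. These groups formed an intermediate tier, within which only whole seed lay above all arrays of the group after it, the axis parenchyma.

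The axis vascular bundle, which carries the same tissue name as the brightest group, read 1042.3 and 956.4 units. The axis epidermis read 706.9 and 618.6, cotyledon adaxial parenchyma 1397.9 and 487.6, and abaxial parenchyma 778.7 and 502.4. The axis bundle was thus dimmer than the axis parenchyma on every array, and the adaxial parenchyma arrays differed widely from each other.

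The abaxial and adaxial epidermis of the cotyledon read 464.5 and 585.9, and 349.1 and 322.3. The root meristem read 324.6 and 330.7. The 10 seed coat arrays spanned 233.7 to 580.0 units with a median of 399.7. These groups made up the lowest tier, and over the whole order of 17 groups 12 of the 16 neighbouring pairs overlapped.

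**Figure D1:**
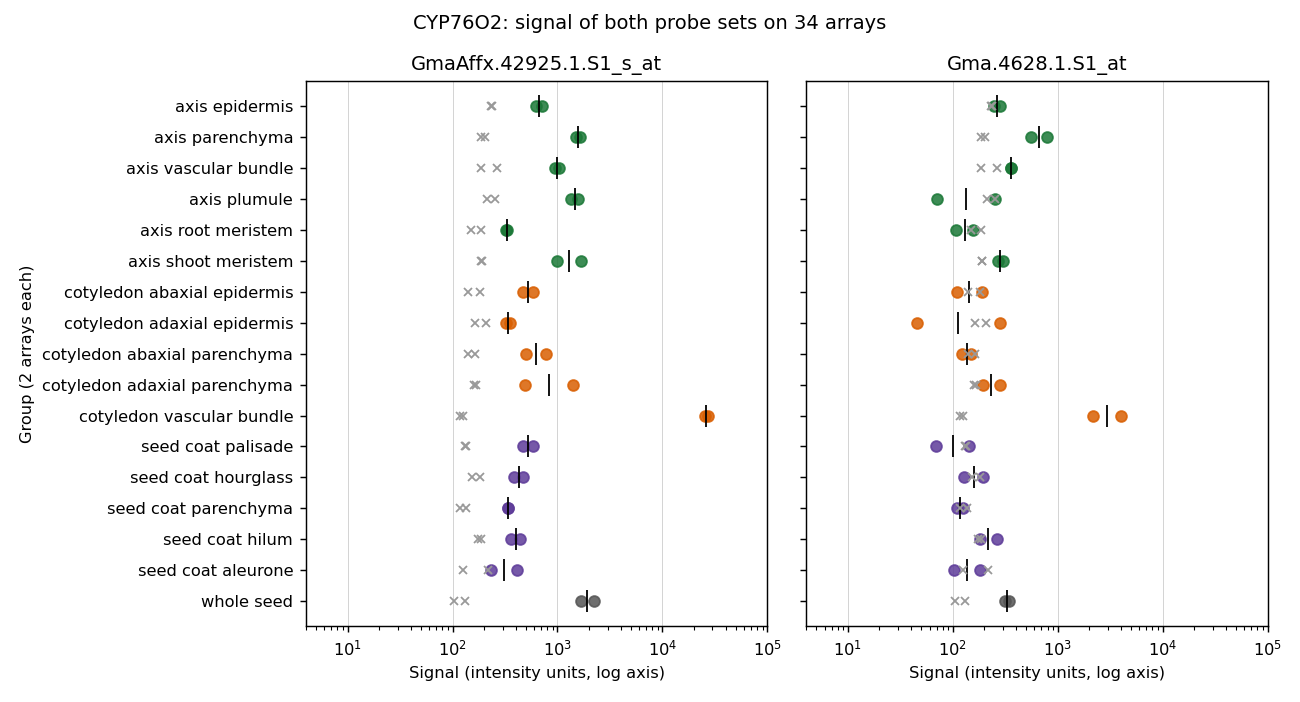
CYP76O2 signal in intensity units (log axis) for each of the 17 groups, with 1 panel per probe set. Dots are arrays (green axis, orange cotyledon, purple seed coat, grey whole seed), black ticks are geometric means of the 2 arrays, and grey crosses are each array's background. In the left panel the cotyledon vascular bundle, at 27122.4 and 25208.9, stands clear of all other groups.

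As a description, the cotyledon bundle exceeded the mean of both cotyledon parenchyma groups by 5.15 ± 0.33 on the log2 scale, a 35.6-fold difference. The axis bundle lay below axis parenchyma by a log2 difference of -0.66 ± 0.38. The difference between these contrasts was 5.81 ± 0.51. These 3 values chose the gene and are not evidence of its pattern. Leaving out an adaxial parenchyma array moved the cotyledon difference to 4.78 or 5.52.

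The other probe set of CYP76O2 read the same RNA samples. It gave 2155.3 and 4016.4 units in the cotyledon vascular bundle, again above the 32 other arrays, whose highest was 793.2 units, in axis parenchyma. The second highest group was axis parenchyma, at 793.2 and 562.0. The axis bundle followed at 361.2 and 357.6. It exceeded background on 23 arrays, and its cotyledon bundle was at least 14.5-fold above parenchyma (log2 difference 3.93 ± 0.51). Across 34 arrays the log2 signals of both probe sets correlated at r = 0.841, and at r = 0.596 over the 32 arrays outside the cotyledon bundle.

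Comparisons that had no part in choosing CYP76O2 were tested. The root meristem, with a mean of 327.65 units, was 3.79-fold below the shoot meristem, with a mean of 1326.85 units (log2 difference -1.92 ± 0.38, adjusted p = 0.00128). Both root meristem arrays lay below the 10 other axis arrays, which read 618.6 to 1656.9. Of all tested probe sets 2.49% had the root meristem lowest in the axis in this way, and 3.08% were called lower in the root than in the shoot meristem. In the other probe set the same difference was -1.04 ± 0.59, with an adjusted p of 0.356.

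The axis epidermis of CYP76O2 was 2.36-fold below axis parenchyma (log2 difference -1.24 ± 0.38, adjusted p = 0.0443), where 4.26% of all probe sets were called lower and 3.34% higher. This call was close to the threshold. Without axis epidermis replicate 1 or 2 the adjusted p was 0.0947 or 0.14, without axis parenchyma replicate 1 or 2 it was 0.184 or 0.139, with arrays scaled to a common 75th percentile it was 0.0535, and without any 1 of 11 arrays of other groups, which enter only through the shared spread and the adjustment, it was 0.0501 to 0.0561. The other probe set gave -1.29 ± 0.59 with an adjusted p of 0.203.

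In the cotyledon, CYP76O2 in the epidermis differed from parenchyma by -0.76 ± 0.27 (adjusted p = 0.0568), which missed the threshold. Here 5.94% of all probe sets were called higher and 5.98% lower. Without adaxial parenchyma replicate 2 the difference was -1.13 with an adjusted p of 0.00398. The abaxial and adaxial epidermis differed by 0.61 ± 0.38 (adjusted p = 0.516), and the abaxial and adaxial parenchyma by -0.39 ± 0.38 (adjusted p = 1.00). The epidermis effect did not differ detectably between cotyledon and axis (0.48 ± 0.47, adjusted p = 0.690).

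The seed coat gave no CYP76O2 difference that passed the test. The F test among its 5 layers had an adjusted p of 0.495, where 46.2% of all probe sets passed, and aleurone differed from the mean of the maternal layers by -0.41 ± 0.30 (adjusted p = 0.362). As a description, since the compartment mean holds the bright cotyledon bundle, whole seed was 2.47-fold above the mean of the 16 compartments on the log2 scale (SE 0.28), in which each compartment counts equally. On the linear scale the order was the other way, with 1949.55 units in whole seed and a mean of 2311.66 over the compartment arrays.

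CYP77A3 was highest in the epidermis of the axis. Its informative probe set read 1207.3 and 718.1 units there, above the 32 other arrays, which reached 521.1 at most. Of all tested probe sets 1.25% had both axis epidermis arrays above all others. This is the group for which the gene was chosen, so the position is a description.

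The cotyledon epidermis came next on its outer face. The abaxial epidermis read 521.1 and 479.7 units. The adaxial epidermis read 397.6 and 131.4 units, and its replicates differed more than the 2 faces did on average. The shoot meristem, at 435.4 and 179.6, had the same wide spread.

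The axis vascular bundle read 276.7 and 259.9 units, and axis parenchyma 116.2 and 142.7. The plumule read 131.4 and 214.7, and the root meristem 111.3 and 136.3. Of these only the bundle exceeded background on both arrays. Cotyledon adaxial parenchyma read 124.2 and 51.0, abaxial parenchyma 52.8 and 94.3, and the cotyledon bundle 61.7 and 66.9. In the seed coat the aleurone read 245.4 and 106.0, and the 8 arrays of the maternal layers read 46.5 to 145.2. Whole seed read 61.0 and 70.4. These last groups were at or under background with the exception of 1 aleurone array.

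Over the series CYP77A3 exceeded background on 9 of 34 arrays, 5 of them among the 6 epidermis arrays. Both arrays were above it in 3 groups (axis epidermis, cotyledon abaxial epidermis and axis vascular bundle), and 14 of the 16 neighbouring pairs in the order of groups overlapped. With background at the 90th or 99th percentile of the other organisms' probe sets, 15 or 6 arrays exceeded it.

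**Figure D2:**
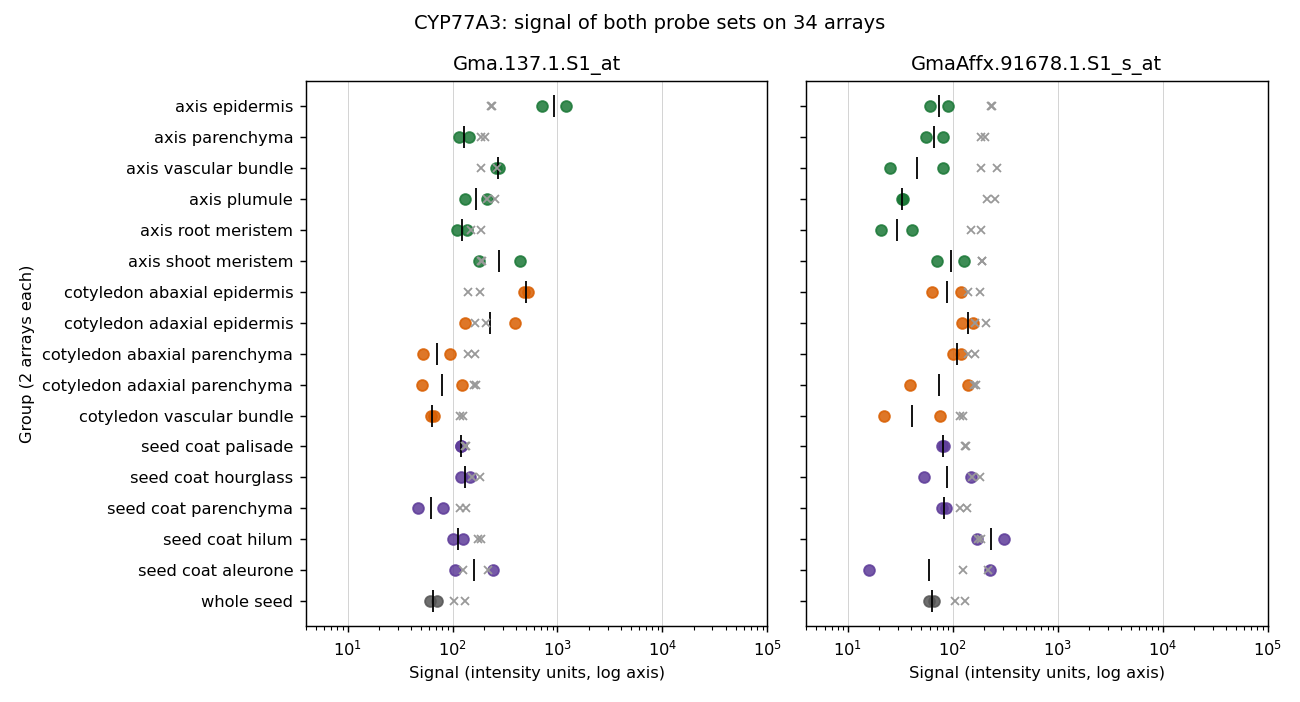
CYP77A3 signal in intensity units (log axis) for each of the 17 groups, with 1 panel per probe set. Dots are arrays coloured by organ, black ticks are geometric means, and grey crosses are each array's background. On the left the axis epidermis (1207.3 and 718.1) and the cotyledon abaxial epidermis (521.1 and 479.7) stand clear of the crosses, while the right panel lies mostly to the left of them.

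As a description, the axis epidermis exceeded axis parenchyma by 2.71 ± 0.55 on the log2 scale, at least 4.49-fold. The cotyledon epidermis exceeded cotyledon parenchyma by 1.96 ± 0.39, at least 2.06-fold. The abaxial exceeded the adaxial epidermis by 1.06 ± 0.55, at least 1.69-fold, and this value ranged from 0.32 to 1.81 when either adaxial array was left out. The epidermis effect of the cotyledon minus that of the axis was -0.75 ± 0.67. Both axis epidermis arrays were among those with bright hybridization controls, at 3.33 and 3.24 times the median array. With the control level as a covariate the axis epidermis difference moved by less than its standard error. The part of the controls in the CYP77A3 level was not otherwise tested. The cotyledon arrays had controls between 0.578 and 1.46 times the median.

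The other probe set of CYP77A3 did not follow the first. It read 16 to 309.4 units and exceeded background on 2 arrays, replicate 2 of the hilum and replicate 1 of the aleurone. No epidermis array exceeded background in it. The log2 signals of both probe sets correlated at r = 0.0556 over 34 arrays, and the axis epidermis difference was 0.11 ± 0.74 in the second. The epidermis pattern of CYP77A3 therefore rested on 1 probe set.

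Among comparisons with no part in the choice, the axis bundle differed from axis parenchyma by 0.97 ± 0.55 in the first probe set (adjusted p = 0.351). Root and shoot meristem differed by -1.09 ± 0.55 (adjusted p = 0.274). Aleurone and the maternal seed coat layers differed by 0.58 ± 0.43 (adjusted p = 0.363), and the F test among seed coat layers had an adjusted p of 0.394. None of these passed the threshold, with levels near background on at least 1 side of each.

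Whole seed is given as a description, because the compartment mean holds the epidermis groups on which CYP77A3 was chosen. The whole seed mean was 65.7 units, under background on both arrays, and the compartment mean was 222.6 units (log2 difference -1.12 ± 0.40, and -0.72 with the brightness of the spiked controls as a covariate).

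In the second probe set of CYP77A3 no tested comparison was called. Aleurone differed from the maternal layers by -0.52 ± 0.58 (adjusted p = 0.570). Without aleurone replicate 1, which was 1 of the 2 arrays above background, this was -1.97 with an adjusted p of 0.0379, and the F test among seed coat layers went from an adjusted p of 0.374 to 0.0356.

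CYP72A67 had a broad embryo pattern with a low in the inner storage tissue of the cotyledon. Its brighter probe set read 49881.5 and 50906.5 units in axis parenchyma. The cotyledon adaxial epidermis read 36614.3 and 46275.2, and the axis epidermis 31952.9 and 30344.5. Axis parenchyma lay above the 32 other arrays, as in 0.791% of all tested probe sets.

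The plumule read 31182.6 and 27405.7 units, and the root meristem 22768.7 and 20668.8. The cotyledon vascular bundle read 26119.2 and 20211.5, and the axis bundle 25807.3 and 16949.1. The abaxial epidermis read 23269.1 and 22619.2, and the shoot meristem 17179.3 and 12915.8. The 18 embryo arrays outside cotyledon parenchyma thus lay between 12915.8 and 50906.5 units.

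The cotyledon parenchyma broke this pattern. Abaxial parenchyma read 11429.9 and 6596.7 units. Adaxial parenchyma read 1082.4 and 251.1 units, still above background. The 2 faces did not overlap, as in 19% of all tested probe sets, and every other embryo array lay above both.

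The label of an abaxial parenchyma pattern therefore holds only against adaxial parenchyma. Among all 17 groups the abaxial parenchyma had rank 12 by mean signal, below whole seed at 14895.9 and 15239.6 and below all embryo groups other than adaxial parenchyma. It overlapped in range with seed coat parenchyma, the group next above it. Over the order of groups 9 of the 16 neighbouring pairs overlapped.

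In the seed coat CYP72A67 was high in 1 layer. Seed coat parenchyma read 8464.9 and 10054.3 units. The hourglass layer read 962.8 and 588.1, the hilum 290.3 and 446.8, the aleurone 608.1 and 197.2, and the palisade 113.8 and 208.6. The parenchyma arrays lay above the 8 other seed coat arrays, whose highest was 962.8. All 12 axis arrays lay above all 10 seed coat arrays, as in 1.83% of all tested probe sets. The palisade held the 1 array of 34 that did not exceed background.

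**Figure D3:**
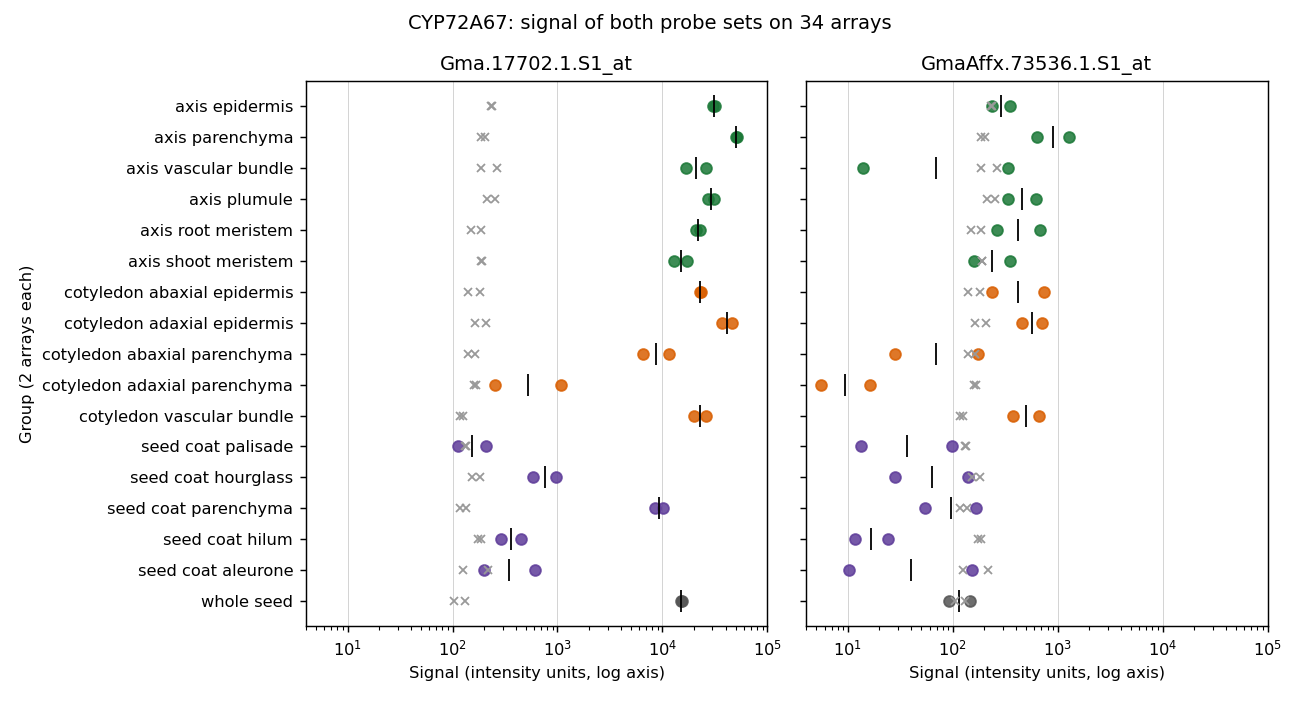
CYP72A67 signal in intensity units (log axis) for each of the 17 groups, with 1 panel per probe set. Dots are arrays coloured by organ, black ticks are geometric means, and grey crosses are each array's background. On the left, axis and cotyledon groups lie between 12915.8 and 50906.5 units apart from the 2 cotyledon parenchyma groups, and in the seed coat only the parenchyma layer, at 8464.9 and 10054.3, comes near them.

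As a description, abaxial exceeded adaxial parenchyma by 4.01 ± 0.46 on the log2 scale, a 16.1-fold difference. It ranged from 2.99 to 5.03 when either adaxial array was left out. The cotyledon epidermis exceeded the mean of both parenchyma groups by 3.82 ± 0.32 (14.2-fold), and the cotyledon bundle exceeded it by 3.40 ± 0.40 (10.6-fold). The epidermis effect in the cotyledon minus that in the axis was 4.52 ± 0.56, and the bundle effect 4.67 ± 0.61. All 5 of these values contain the parenchyma groups on which the gene was chosen.

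The other probe set of CYP72A67 was dim. It read 5.5 to 1274.8 units and exceeded background on 19 arrays. Its highest group was axis parenchyma, at 638.9 and 1274.8, and its lowest was adaxial parenchyma, at 16.1 and 5.5. Abaxial parenchyma read 172.2 and 27.9, so the faces did not overlap here either, but neither was mostly above background and no fold is given (log2 difference 1.79 ± 0.99). Both probe sets correlated at r = 0.772 over 34 arrays.

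The seed coat comparisons had no part in the choice of CYP72A67. The F test among the 5 layers had an adjusted p of 8.07e-10 in the first probe set. Of the 6 probe sets of the 3 genes 1 passed this test, against 46.2% of all probe sets. Having the parenchyma layer above all other seed coat arrays was shared by 7.38% of all tested probe sets. The SEO genes moved with this layer, as given above, and their part in the CYP72A67 level was not tested. In the second probe set seed coat parenchyma read 54.9 and 167, with 1 array above background, and the F test had an adjusted p of 0.578.

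Aleurone was called lower than the mean of the maternal seed coat layers for CYP72A67 (2.25-fold, log2 difference -1.17 ± 0.36, adjusted p = 0.0165), where 11% of all probe sets were called lower and 10.8% higher. The aleurone mean was 402.65 units, and the maternal mean of 2641.2 units was set by the parenchyma layer. The other 3 maternal layers, at 113.8 to 962.8 units, overlapped with the aleurone. Without aleurone replicate 2 the difference was -0.40 with an adjusted p of 0.580.

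In the axis, no tissue comparison of CYP72A67 passed the threshold in its brighter probe set. The epidermis differed from parenchyma by -0.69 ± 0.46 (adjusted p = 0.417), although both parenchyma arrays lay above both epidermis arrays. With the brightness of the spiked controls as a covariate this was -1.61 with an adjusted p of 0.0342. The axis epidermis arrays were those with the brightest controls.

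The axis bundle differed from axis parenchyma by -1.27 ± 0.46 for CYP72A67 (adjusted p = 0.0976), where 3.65% of all probe sets were called lower and 3.57% higher. It passed with the control covariate (-1.48, adjusted p = 0.0140) and without either adaxial parenchyma array, which enters only through the shared spread (adjusted p = 0.0325 without replicate 1 and 0.0323 without replicate 2). The dim probe set was called lower, by at least 3.44-fold (-3.16 ± 0.99, adjusted p = 0.0469). That call was close to the threshold and leaned on replicate 2 of the axis bundle, at 14 units against 337.9 for replicate 1. Without replicate 2 the difference was -1.38, and without axis parenchyma replicate 1 or 2 it was -3.65 or -2.67. With a pseudocount of 1 in place of 16 the adjusted p was 0.0862, and with no filter on dim probe sets it was 0.0607. The call was also lost without either axis parenchyma array. Some single arrays of other groups, which enter only through the shared spread and the adjustment, had the same effect when left out.

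The abaxial and adaxial epidermis differed by -0.84 ± 0.46 for CYP72A67 (adjusted p = 0.424). The adaxial arrays, 36614.3 and 46275.2, both lay above the abaxial arrays, the reverse of the order of the parenchyma beneath, and the limma test did not pass. The root and shoot meristem differed by 0.54 ± 0.46 (adjusted p = 0.585). As a description, since the compartment mean holds the parenchyma groups on which the gene was chosen, whole seed lay 1.27 ± 0.33 above the mean of the compartments on the log2 scale (2.42-fold), and 2.64 above it with the brightness of the spiked controls as a covariate. The linear means had the opposite order, 15067.8 against 17323.9.

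Counted over the probe sets tested in each comparison, limma called 1 of 4 lower and 0 higher in axis epidermis than in axis parenchyma, beside 4.26% and 3.34% of all probe sets. In the axis bundle it also called 1 of 4 lower and 0 higher, beside 3.65% and 3.57%. In the test of root against shoot meristem 1 of 6 was called lower and 0 higher, beside 3.08% and 4.38%. For aleurone against the maternal layers the same numbers were 1 and 0, beside 11% and 10.8%. Between abaxial and adaxial epidermis 0 of 4 were called and 0 had an unadjusted p below 0.05, beside 1.88% of all probe sets called higher and 1.64% lower. Between abaxial and adaxial parenchyma, for CYP76O2 and CYP77A3, limma called 0 of 4 with 0 at an unadjusted p below 0.05, beside 0.605% higher and 0.415% lower. The cotyledon bundle was tested against parenchyma for CYP77A3, where limma called 0 of 2 with 0 at an unadjusted p below 0.05, beside 6.65% higher and 4.03% lower. The epidermis effect of CYP76O2 and the bundle effect of CYP77A3 were compared between organs in 2 probe sets each. Limma called 0 of these, with 0 at an unadjusted p below 0.05, beside 2.28% higher and 1.07% lower for the epidermis and 2.19% higher and 0.844% lower for the bundle. In cotyledon epidermis against parenchyma, tested for CYP76O2, limma called 0 of 2, beside 5.94% higher and 5.98% lower. Here 1 of 2 had an unadjusted p below 0.05. The same held for 2 of 4 in axis epidermis, 2 of 4 in the axis bundle, 1 of 6 between the meristems and 1 of 6 in aleurone. Each of these counts rests on 2 to 6 probe sets.

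Triterpene saponin genes were set beside CYP72A67 by a list of symbols. It matched CYP93E1, the P450 that hydroxylates the beta-amyrin skeleton in soyasaponin synthesis, and SGT2 and SGT3, glycosyltransferases that add sugars to the soyasapogenol chain. All 3 passed as higher in cotyledon epidermis than in cotyledon parenchyma. The median log2 difference of the list was 3.88, against -0.02 over all probe sets, of which 5.94% were called higher.

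CYP93E1 read 37910.5 and 47453.2 units in abaxial epidermis and 48934.7 and 69961.5 in adaxial epidermis. It read 15703.1 and 6401.4 in abaxial parenchyma and 2968.1 and 417.3 in adaxial parenchyma. The epidermis and parenchyma arrays did not overlap, and the difference was 3.88 ± 0.61 (14.7-fold, adjusted p = 3.35e-05). SGT2 differed by 4.92 ± 0.45 (30.3-fold, adjusted p = 4.31e-09) and SGT3 by 2.73 ± 0.31 (6.62-fold, adjusted p = 2.47e-07).

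The cotyledon bundle gave the same directions. All 3 list genes passed as higher than in parenchyma, beside 6.65% of all probe sets. The differences were 3.41 ± 0.75 for CYP93E1 (10.6-fold, adjusted p = 0.00191), 4.72 ± 0.55 for SGT2 (26.3-fold, adjusted p = 4.04e-07) and 2.41 ± 0.38 for SGT3 (5.30-fold, adjusted p = 4.39e-05). The median of the list was 3.41, against -0.05 over all probe sets.

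The 2 faces of cotyledon parenchyma separated these genes as they did CYP72A67. SGT2 read 3648.3 and 1899.8 units in abaxial and 723.9 and 76.7 in adaxial parenchyma, and SGT3 read 3903.5 and 1576.3 against 965 and 361.1. In each list gene both abaxial arrays lay above both adaxial arrays, as in 19% of all tested probe sets. SGT2 (3.34 ± 0.63, at least 7.35-fold, adjusted p = 0.00333) and SGT3 (2.04 ± 0.44, 4.11-fold, adjusted p = 0.0131) were called, beside 0.605% of all probe sets called higher. CYP93E1 had a difference of 3.14 ± 0.86 that was not called (adjusted p = 0.0891).

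Replicate 2 of adaxial parenchyma was the lower array for CYP72A67 and for all 3 list genes, and replicate 2 of abaxial parenchyma was the lower array for all 4 as well. Without adaxial replicate 2 the SGT2 difference was 1.84 (adjusted p = 0.320) and the SGT3 difference 1.35 (adjusted p = 0.532). Without abaxial replicate 1 they were 2.87 (adjusted p = 0.122) and 1.39 (adjusted p = 0.495). The calls between the faces thus needed both of these arrays.

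**Figure D4:**
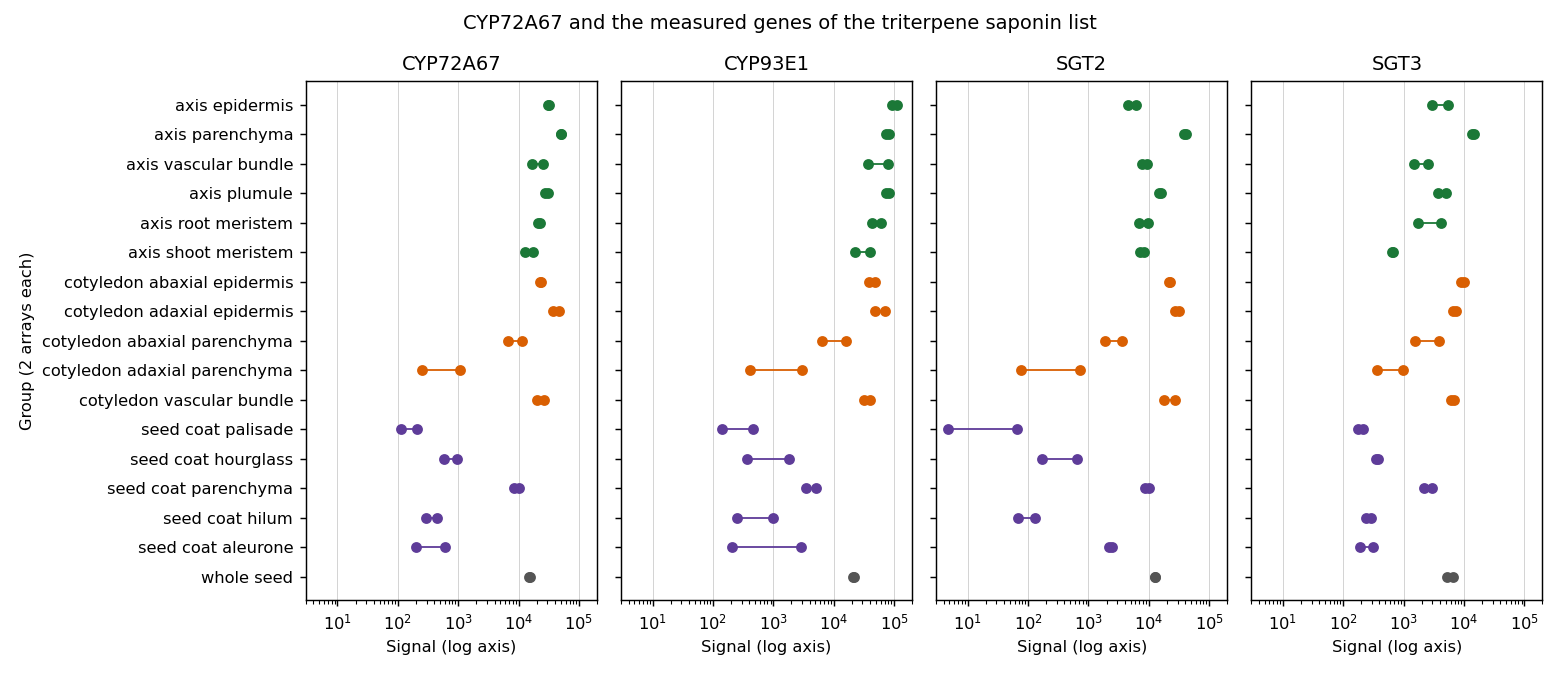
Signal in intensity units (log axis) of CYP72A67 (brighter probe set) and of CYP93E1, SGT2 and SGT3 in the 17 groups. Dots are arrays coloured by organ and joined by a line within a group. In all 4 panels cotyledon adaxial parenchyma lies below abaxial parenchyma, and seed coat parenchyma lies above the palisade and the hilum.

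In the axis the list genes did not move as a group. CYP93E1 was highest in the axis epidermis, at 110223.7 and 92855.5 units, and differed from axis parenchyma by 0.35 ± 0.86 (adjusted p = 0.869). SGT2 was called lower in the epidermis (7.56-fold, log2 difference -2.92 ± 0.63, adjusted p = 0.00331), and so was SGT3 (3.53-fold, -1.82 ± 0.44, adjusted p = 0.00869). SGT2 and SGT3 were also called lower in the axis bundle than in axis parenchyma, by 4.79-fold (adjusted p = 0.0239) and 7.21-fold (adjusted p = 7.29e-05). CYP72A67 was brightest in axis parenchyma, as SGT2 (41554.8 and 38572.8) and SGT3 (13630.4 and 14913.2) were. The SGT2 call in the axis bundle was lost without replicate 1 or 2 of that group (adjusted p = 0.151 or 0.0554) and without axis parenchyma replicate 1 or 2 (adjusted p = 0.121 or 0.103). The SGT3 call in the epidermis had an adjusted p of 0.103 without replicate 2 of that group and 0.0717 without replicate 2 of axis parenchyma.

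In the seed coat SGT2 read 8572.5 and 10090.9 units in parenchyma and SGT3 read 2144.9 and 2937.6, in each case above the 8 other seed coat arrays. CYP93E1 read 3527.4 and 5094.3 there. Its other seed coat arrays reached 2882.9, in the aleurone, so that it too was highest in the parenchyma layer. SGT2 was called higher in aleurone than in the mean of the maternal layers on the log2 scale, by 2.72 ± 0.50 (adjusted p = 0.000138). No fold is given, because the linear means had the opposite order, 2296.15 against 2468.45, with the parenchyma layer above the aleurone. CYP72A67 was called lower in the same comparison.

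The other lists of pathway genes around the 3 P450s were short. The cutin and wax list matched only WIN. WIN was called higher in cotyledon epidermis than in parenchyma (1.38 ± 0.43, adjusted p = 0.0280), with neither side mostly above background, and lower in axis epidermis than in axis parenchyma (-2.71 ± 0.61, adjusted p = 0.00495). It read 655.5 units on average in adaxial epidermis and 26.05 in abaxial epidermis, at least 3.81-fold lower in the abaxial (adjusted p = 0.000157). The first probe set of CYP77A3 had the higher mean on the abaxial face, a described difference of 1.06 ± 0.55. Its other probe set, dim on both faces, had the opposite order (-0.57 ± 0.74). The cotyledon epidermis call of WIN was lost without any 1 of 6 arrays (adjusted p up to 0.101), and its axis call had an adjusted p of 0.0504 without replicate 1 of the epidermis and 0.123 without replicate 1 of the parenchyma.

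The terpenoid list, set beside CYP76O2, had 3 tested genes. DXR1, for an enzyme of the plastid isoprenoid pathway, was called lower in the cotyledon bundle than in parenchyma (means of 727.3 and 2978.35 units, adjusted p = 1.73e-05) and lower in the epidermis (2.35-fold, adjusted p = 0.000510). GPPS, for geranyl diphosphate synthase, which makes the precursor of monoterpenes, was called higher in the cotyledon epidermis (4.12-fold, adjusted p = 0.00829). In the cotyledon bundle, where CYP76O2 peaked, limma called 0 of the 3 higher and 1 lower, beside 6.65% and 4.03% of all probe sets. GPPS was 3.11-fold above parenchyma there, with means of 3231.4 and 1159.62 units, but was not called (adjusted p = 0.116). An unadjusted limma p below 0.05 was found for 2 of the 3, DXR1 as lower and GPPS as higher. The list of electron donors of P450 enzymes matched no symbol.

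The annotation named 22 other P450 genes, of which 18 passed the filter on dim probe sets. None belonged to the families CYP72, CYP76 or CYP77. By the F test over 16 compartments 15 of the 18 passed, beside 63.4% of all probe sets, and 9 of 18 passed among the seed coat layers, beside 46.2%. A compartment pattern was thus common among the P450 genes and among all probe sets alike.

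**Figure D5:**
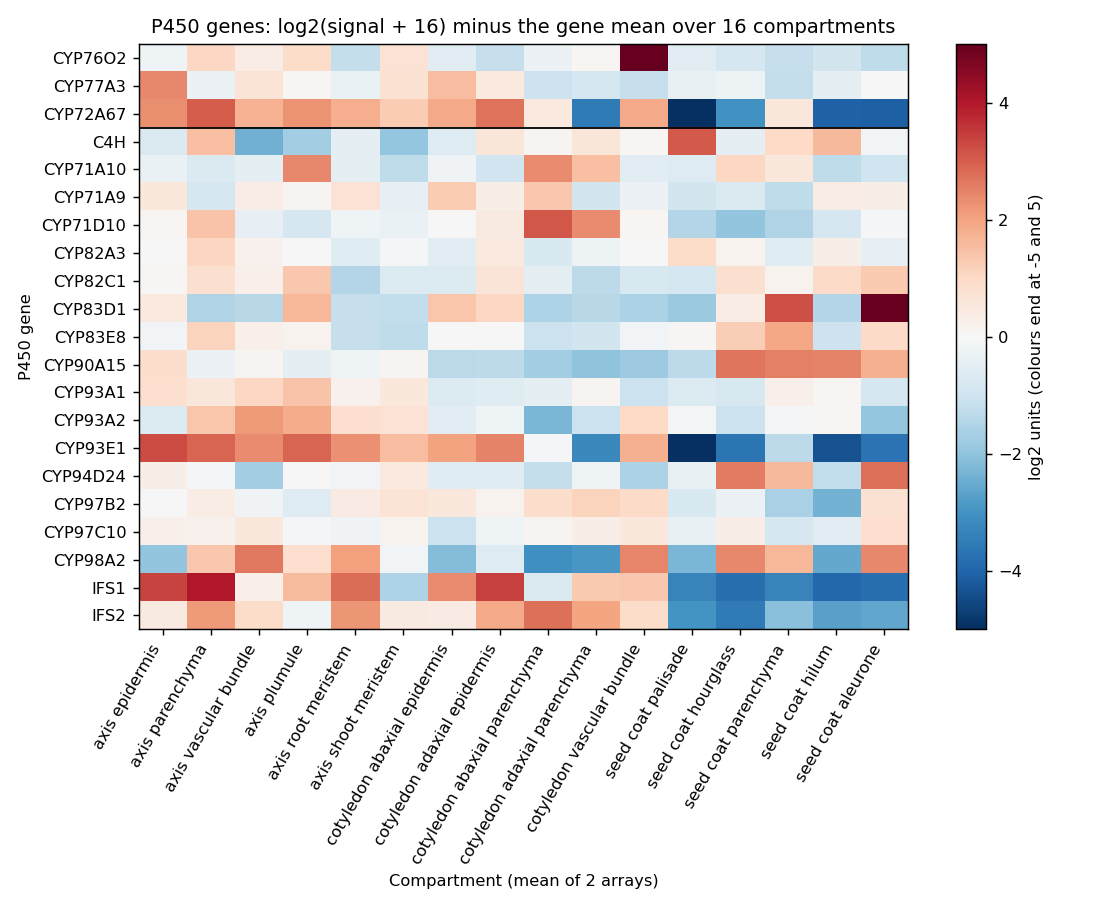
Mean log2(signal + 16) of 2 arrays minus the gene's mean over the 16 compartments, for the 3 chosen genes (above the line, brighter probe set) and the 18 other tested P450 genes. Red is above and blue below the gene's own mean, and colours end at -5 and 5. CYP72A67 and CYP93E1 have similar rows, and CYP76O2 has its dark cell in the cotyledon vascular bundle.

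Phenylpropanoid P450 genes had clear patterns of their own. C4H, the cinnamate 4-hydroxylase of that pathway, read 20243.5 and 14696.6 units in the palisade, above a highest other array of 7021.8. It was called lower in axis epidermis than in axis parenchyma (4.72-fold, adjusted p = 0.0161) and lower in the axis bundle (at least 12.3-fold, adjusted p = 5.23e-05). CYP98A2, of the family that hydroxylates p-coumaroyl esters on the way to lignin, read 8338 and 5804.1 in the axis bundle, 7606.4 and 4886.6 in the cotyledon bundle, and 68 to 196.4 in cotyledon parenchyma.

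CYP98A2 shared the cotyledon bundle with CYP76O2 but not the axis bundle. Its cotyledon bundle exceeded parenchyma by 5.44 ± 0.47 (at least 31.9-fold, adjusted p = 2.85e-09), beside 6.65% of probe sets called higher. In axis epidermis it was 9.96-fold below axis parenchyma (adjusted p = 0.000148). The C4H call in the axis epidermis was lost without axis epidermis replicate 1 (adjusted p = 0.167) and without axis parenchyma replicate 1 or 2 (adjusted p = 0.108 or 0.0696).

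The isoflavone synthase genes IFS1 and IFS2 exceeded background on 0 of 10 seed coat arrays. IFS1 read 16631.2 and 16350.8 units in axis parenchyma and 30.2 to 122.6 units over the seed coat. It was called higher in cotyledon epidermis than in parenchyma (6.09-fold, adjusted p = 5.04e-06), higher in the root than in the shoot meristem (at least 18.7-fold, adjusted p = 1.01e-06) and lower in the axis bundle than in axis parenchyma (13.3-fold, adjusted p = 1.30e-05). Its probe set can bind copies, and IFS2 is a close relative, so that each may read the other in part.

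IFS1 was the only other P450 gene called between the faces of cotyledon parenchyma, beside 0.415% of probe sets called lower. It read 712.7 and 528.5 in abaxial and 2299.8 and 2849.6 in adaxial parenchyma, a 4.09-fold difference in the direction opposite to CYP72A67 (-2.03 ± 0.51, adjusted p = 0.0467). That call was lost in 22 of the 34 fits that left out 1 array, with adjusted p up to 0.403.

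Counted over the list, 2 of the 18 genes were called lower and 0 higher in axis epidermis than in axis parenchyma, beside 4.26% and 3.34% of all probe sets. The same numbers held for the axis bundle, beside 3.65% and 3.57%. In cotyledon epidermis 4 were higher and 2 lower, beside 5.94% and 5.98%, and in the cotyledon bundle 3 were higher and 2 lower, beside 6.65% and 4.03%. In whole seed 3 were higher than the mean of the compartments and 0 lower, beside 12% and 7.38%. These were IFS1, IFS2 and CYP71D10, and all 3 calls were lost without whole seed replicate 2. With the control level as a covariate limma no longer called IFS1 (adjusted p = 0.646) or IFS2 (adjusted p = 0.477). CYP71D10 was called lower in cotyledon epidermis than in parenchyma, by at least 5.35-fold (adjusted p = 0.000658). It was also called lower in the cotyledon bundle, by 6.23-fold (adjusted p = 0.00349), a call lost without replicate 2 of that bundle. It read 2113.4 and 1022.7 in abaxial parenchyma and 866.6 and 871.7 in adaxial parenchyma, the tissue in which CYP72A67 was lowest in the embryo. Between abaxial and adaxial epidermis limma called 0 of 18, with 5 at an unadjusted p below 0.05, beside 1.88% of all probe sets called higher and 1.64% lower.

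In the aleurone 5 genes of the list were called higher and 1 lower than in the maternal layers, beside 10.8% and 11% of all probe sets. CYP83D1 read 1619.7 and 3393.7 units there, at least 8.68-fold above the maternal layers (adjusted p = 1.32e-05). CYP97B2 and CYP97C10, of a family of carotenoid hydroxylases, were 4.13-fold (adjusted p = 4.43e-05) and 2.28-fold higher (adjusted p = 0.00656), and CYP98A2 was 6.02-fold higher (adjusted p = 3.77e-05). CYP94D24 was at least 2.30-fold higher (adjusted p = 0.00680) and C4H 2.69-fold lower (adjusted p = 0.0226). The calls of C4H and CYP97C10 were lost without aleurone replicate 2 (adjusted p = 0.274 and 0.0958), and that of CYP94D24 without replicate 1 (adjusted p = 0.184).

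Patterns most like those of the 3 genes were looked for among 886 named genes, by Pearson's r of mean log2 signals over the 16 compartments. These r values describe likeness over 16 points that share arrays, and carry no test. For CYP72A67 the 5 nearest were CYP93E1 (r = 0.976), KTI-3 (0.975), DRR1 (0.926), SGT2 (0.920) and SGT3 (0.912). All 3 genes of the saponin list were thus among its 5 nearest, together with KTI-3, named as a Kunitz trypsin inhibitor, and DRR1. The same 5 were nearest over 34 single arrays, and 3 of them by Spearman's rho over compartments.

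For CYP76O2 the nearest were PHANb (r = 0.754), MYB145 (0.664), PM25 (0.601), PHANa (0.562) and VSPA (0.561). MYB145, a MYB transcription factor gene, read 3939.4 and 3804.2 units in the cotyledon bundle, 201.5 and 136.7 in the axis bundle and 744.8 and 990 in seed coat parenchyma. PHANb read 2293.6 and 2394.5 in the cotyledon bundle. Both shared the peak of CYP76O2 in the cotyledon bundle. The same 5 genes were nearest over 34 arrays, and 2 of them by Spearman's rho.

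For CYP77A3 the nearest were SUT1 (r = 0.800), BZIP98 (0.797), UGT78K1 (0.774), GSTIR (0.761) and SABATH2 (0.721). SUT1, a sucrose transporter gene, read 30441.3 and 40789.9 units in cotyledon abaxial epidermis, 22008 and 21543.8 in axis epidermis and 715.3 and 612.9 in adaxial epidermis. It thus had the abaxial face above the adaxial, as the mean of the first CYP77A3 probe set had. UGT78K1, a flavonoid glucosyltransferase gene, read 32926.2 and 42303 in abaxial, 26057.5 and 25212.9 in adaxial and 18849.9 and 17068.3 in axis epidermis. For CYP77A3 the choice of measure mattered most, since 2 of these 5 were nearest over 34 arrays and 0 by Spearman's rho.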

How the data were processed

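Soybean Genome Array (Affymetrix) data from 34 arrays in 17 groups of 2 were used. The deposited values are linear intensity per probe set, made with GCOS 1.3 per the submitters' processing notes. The algorithm within that software is not given in the sources used here. Deposited arrays shared a trimmed mean of 500.054 to 500.068 (2% trimmed at each end), so each had been scaled to a common level, and a compartment with few strong transcripts can read higher throughout. Total signal therefore carries no information on RNA amount.

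Of 61170 probe sets, 37593 were for soybean, and 28441 were tested because they exceeded the background on at least 2 arrays. Gene names came from the platform annotation, where 8677 soybean probe sets had 1 gene and 370 had several; all 25 P450 gene IDs were found in RefSeq's list of genes. Where a list gene had several probe sets, the one with the highest mean was used. Log2(signal + 16) was fitted with limma 3.58.1 (lmFit, eBayes with trend) in R 4.3.3 over 17 groups, with the package data.table (version 1.17.8). Figures were drawn with matplotlib 3.10.9 and pandas 2.3.3 under Python 3.11.15. The script was tested on simulated data. Alternatives were a pseudocount of 1, quantile normalization, scaling to the 75th percentile, no filter, the control level as a covariate, removal of the 6 arrays with bright controls, a replicate block and leaving out each array.

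The 3 genes and all gene lists were chosen with earlier results of these data known. Whole seed against the compartments was planned as a test and is described only for the 3 genes, since that mean holds the groups on which they were chosen. All probe sets of the 3 genes are named; of the other P450 genes, up to 5 called in each direction per comparison were eligible, and of the pathway lists every tested gene. Differences of replicate 1 minus replicate 2 correlated at -0.0874 to 0.153 over 136 pairs of groups, with a median of 0.0165. These values were low over all probe sets, but they do not settle whether the numbers pair samples. With 2 replicates per group the number of arrays limits the precision. No 2 arrays held identical values.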

Additional observations from a re-analysis of the deposited data

Results flagged for a closer look

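The difference of a tissue from parenchyma was not the same in cotyledon and axis for several genes set beside the 3 P450s. This was tested by limma's interaction term, with p-values adjusted over all probe sets. The epidermis effect was taken as epidermis minus parenchyma, with its sign. It was higher in the cotyledon than in the axis by 7.84 ± 0.77 on the log2 scale for SGT2 (adjusted p = 1.84e-07) and by 4.55 ± 0.54 for SGT3 (adjusted p = 3.94e-06). It was higher by 4.89 ± 0.66 for CYP98A2 (adjusted p = 2.86e-05), by 3.22 ± 0.62 for IFS1 (adjusted p = 0.00233) and by 4.09 ± 0.75 for WIN (adjusted p = 0.00133). Of all probe sets 2.28% were called in this direction and 1.07% in the other. For CYP93E1 the value was 3.53 ± 1.05, which was not called (adjusted p = 0.0640). The sign was opposite in the organs for SGT2 (4.92 in the cotyledon, -2.92 in the axis), SGT3 (2.73 and -1.82) and WIN (1.38 and -2.71). For WIN neither cotyledon side was mostly above background, and only the adaxial face was bright. Its means were 655.5 units in adaxial and 26.05 in abaxial epidermis, beside 27.05 in abaxial parenchyma.

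The vascular bundle effect, with its sign, was higher in the cotyledon by 6.98 ± 0.83 for SGT2 (adjusted p = 4.63e-06) and by 5.26 ± 0.58 for SGT3 (adjusted p = 1.35e-06). It was higher by 4.77 ± 0.67 for IFS1 (adjusted p = 4.70e-05), by 4.14 ± 0.72 for CYP98A2 (adjusted p = 0.000673) and by 3.65 ± 0.78 for C4H (adjusted p = 0.00606), beside 2.19% of all probe sets. The sign was again opposite in the organs for SGT2 (4.72 in the cotyledon, -2.26 in the axis) and SGT3 (2.41 and -2.85). Both effects subtract the same parenchyma groups, so the epidermis and bundle values are not separate findings. A brighter axis than cotyledon parenchyma raises both. SGT2 averaged 40063.8 units in axis, 2774.05 in cotyledon abaxial and 400.3 in cotyledon adaxial parenchyma. For SGT3 these means were 14271.8, 2739.9 and 663.05. Axis arrays had hybridization controls of 1.08 to 3.33 times the median array and cotyledon arrays 0.578 to 1.46 times. With the control level as a covariate these calls between organs were kept. The part of the controls in the differences was not otherwise tested.

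The array also carries control probe sets for a soybean P450 transcript whose gene the annotation does not name. The 3′ part read 1922.5 to 51037.9 units on the 22 embryo arrays, above background on all 22, and 26.6 to 429.3 on the 10 seed coat arrays, with 1 above background. The 5′ part exceeded background on 10 of the 22 embryo arrays and on 5 of the 10 seed coat arrays. The middle part exceeded it on 0 of the 22 embryo arrays and 0 of the 10 seed coat arrays. The embryo pattern was thus seen in the 3′ part only.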

How the results depend on the processing

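No called difference turned its direction under any alternative run. Of the 66 differences of the 3 genes 17 changed sign in at least 1 setting, most when 1 array was left out; all 17 were uncalled or described and at most 0.52 in size. Between the parenchyma faces CYP76O2 ranged from -1.14 to 0.35, and aleurone in the dim probe set of CYP77A3 from -1.97 to 0.94. The number of called probe sets stayed within 1.5 times its value in all alternatives apart from leaving out arrays, except that the whole seed count of 5498 became 1761 when the hybridization control level was a covariate. Leaving out 1 array at a time gave counts of 1213 to 2427 for axis epidermis against parenchyma, 1239 to 2531 for axis bundle against parenchyma, 2861 to 3553 for cotyledon epidermis, 1925 to 3188 for cotyledon bundle, 544 to 1111 between the faces of the epidermis, 144 to 317 between the faces of the parenchyma, 1214 to 2277 for the meristems, 4769 to 6408 for aleurone, 2347 to 5694 for whole seed, 591 to 1341 and 511 to 1262 for the epidermis and bundle effects between organs, 11836 to 13742 for the seed coat layers and 17166 to 18747 for all compartments. Of 288 tested values of the 3 genes under other settings 280 kept their side of the threshold, and of 1428 with 1 array left out 1386 did. Most of these tested values were uncalled in the main fit, so the shares say little about the calls themselves. Leaving out certain single arrays lost the calls of CYP76O2 in axis epidermis and of CYP72A67 in aleurone. It also lost that of the dim CYP72A67 probe set in the axis bundle. Removal of the arrays with bright controls left no axis epidermis array, so comparisons that use it were not run there.

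With the replicate block the counts were 2241, 2114, 3437, 3085, 1029, 319, 2174, 6260, 5569, 993, 921, 13289 and 18193 in the same order, and the block changed no call of the 3 genes. At the 99th percentile background the dimmer probe sets exceeded it on 9 arrays for CYP76O2, 10 for CYP72A67 and 1 for CYP77A3, and at the 90th on 7 for CYP77A3. The quantile-normalized cotyledon bundle difference of CYP76O2 was 5.50. Levels near background limited CYP77A3 most.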
